A study of Mus musculus with 6 samples.

Results

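The heat shock proteins and the DNAJ co-chaperones were compared between cultured mouse granulocytes with and without caffeine, using 78 genes out of 19937 tested. A gene belonged to the set if a probe set of the array was annotated to its symbol alone and the symbol was that of a DNAJA, DNAJB or DNAJC protein, an HSPA, HSP90, HSPB, HSPD, HSPE or HSPH protein, or carried a Cct symbol (subunits and relatives of the CCT chaperonin). Hspa5 was left out. The rule used names only and no measured value. It covered 100 probe sets, and each gene was read from its brightest one, by the mean over 6 arrays. Hsp90ab1 and Hspa1b, which the rule also covers, have no probe set of their own in the annotation used here and were not analysed.

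The cells were granulocytes of C57BL/6J mice, profiled on 6 arrays of the Affymetrix Mouse Gene 1.0 ST type, 3 labelled caffeine+ and 3 labelled caffeine-. The labels' protocol describes 4 hours of 15 mM caffeine followed by washing, after which 1 plate got 2 µg/ml actinomycin D plus caffeine, and the other actinomycin D alone, for another 4 hours. Both groups thus had actinomycin D, which blocks transcription. The protocol reads as if both plates also had the first caffeine exposure, but the labels call the caffeine-minus cells untreated, so whether a difference compares continued caffeine with its removal or with no caffeine could not be settled. The series asks which transcripts accumulate when caffeine inhibits nonsense-mediated decay, and nothing in the labels states whether the arrays of a group came from separate cultures or animals, so p-values measure the spread between arrays, which may be technical.

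Values are log2 signals per probe set, and a difference is the caffeine-plus mean minus the caffeine-minus mean with its standard error, from 3 arrays per group. A gene is called higher or lower, and is said to have risen or fallen, where its adjusted p was under 0.05 in limma, fitted on all 19937 genes and adjusted by the Benjamini-Hochberg method. A value depends on the probes as well as on the amount of RNA, so values are compared between arrays and not between genes.

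HSP70 proteins bind exposed hydrophobic stretches of unfolded chains and release them in a cycle driven by ATP. DNAJ proteins deliver clients and trigger ATP hydrolysis through their J domain, and nucleotide exchange factors, among them the HSP110 proteins, reset the cycle. HSP90 takes clients from HSP70 for late folding steps, the CCT ring (also called TRiC) folds actin and tubulin in the cytosol, and HSPD1 with its lid HSPE1 folds proteins in mitochondria. Small heat shock proteins hold unfolded chains without ATP. Under heat or proteotoxic stress the factor HSF1 binds heat shock elements in many of these genes, while chaperones of the endoplasmic reticulum (ER) answer to the unfolded protein response through ER stress response elements.

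Promoter stretches are shown for the matched members that carry a heat shock element of 3 units (Hspd1 shares that of Hspe1) or an ER stress response element, whatever their call. Promoter windows of 300 bases, from 250 bases before to 50 after each annotated start, were taken from RefSeq (GRCm38.p6) and matched 64 of the 78 members. Cct4, Dnajc11, Dnajc12, Dnajc18, Dnajc2, Dnajc22, Dnajc30, Dnajc5, Dnajc5b, Hsp90aa1, Hspa13, Hspa8, Hspa9 and Hspb2 were not matched. Each stretch runs 5′ to 3′ on the gene's strand, and capitals mark the element.
Hspe1 (chr1:55088024-55088111, plus strand): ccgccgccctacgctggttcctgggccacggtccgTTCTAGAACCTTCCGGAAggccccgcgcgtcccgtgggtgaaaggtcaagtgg
Dnajb6 (chr5:29735817-29735897, plus strand): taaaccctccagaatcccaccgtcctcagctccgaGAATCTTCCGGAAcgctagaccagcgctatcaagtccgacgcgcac
Hsph1 (chr5:149636280-149636308, minus strand): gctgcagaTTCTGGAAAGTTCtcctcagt
Dnajc3 (chr14:118937792-118937880, plus strand): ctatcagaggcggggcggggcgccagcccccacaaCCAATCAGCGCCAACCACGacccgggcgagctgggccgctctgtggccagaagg
Hsp90b1 (chr10:86705498-86705691, minus strand): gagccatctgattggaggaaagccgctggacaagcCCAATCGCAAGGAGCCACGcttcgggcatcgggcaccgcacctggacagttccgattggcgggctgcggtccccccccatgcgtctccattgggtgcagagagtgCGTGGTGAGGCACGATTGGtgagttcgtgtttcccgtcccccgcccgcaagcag

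A heat shock element of 3 units was searched as GAANNTTCNNGAA on both strands. It lay in the windows of 4 of 64 matched members, Dnajb6, Hsph1, Hspd1 and Hspe1, against 0.662% of the 27025 genes with a window. Hspd1 and Hspe1 are read away from each other and share the stretch printed for Hspe1, in which 2 overlapping copies begin 89 and 84 bases before the start of Hspe1. In Dnajb6 the element begins 46 bases before the more upstream of the starts that hold it, and in Hsph1 it lies after the start, from base 16 or 37 of the transcript depending on which of 2 annotated starts is used. The shorter form GAANNTTC, which is its own reverse complement and is contained in the longer one, lay in 15 of 64 members against 9.04% of all genes. Among those 15, 4 rose with caffeine (Dnaja1, Dnajb6, Hspa1a and Hsph1), Cct8l1 fell, and 10 did not pass the test, Hspd1, Hspe1, Hspb1 and Dnaja4 among them. In the 64 matched members 21 rose, 17 fell and 26 did not pass.

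The ER stress response element, searched as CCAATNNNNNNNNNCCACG on both strands, lay in 2 of 64 members against 0.137% of all genes. Dnajc3 held 1 copy and rose, and Hsp90b1 held 2 copies, of which the nearer is read on the opposite strand, and did not pass the test. The cAMP response element TGACGTCA lay in 1 member, Dnajc27, against 2.03% of all genes, and Dnajc27 did not pass the test. The motifs were chosen with the differences known, and a match describes letters in a window, not binding.

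Of all genes tested, 16.2% (3229) rose and 21.7% (4325) fell with caffeine. With each array centred on its median this became 4388 higher and 3177 lower, and the median difference of the 78 members moved from -0.04 to 0.08, so small differences depend on the scaling. All 16 listed granulocyte markers (S100a8, S100a9, Ly6g, Elane and others) were measured, with a median log2 value of 9.13 against 6.68 over all genes, and all fell, with a summed linear signal of 18985 to 19560 in the caffeine-plus arrays and 28040 to 29650 in the caffeine-minus arrays. Monocyte and macrophage markers included 6 lower and 2 higher of 9 measured, with sums of 5428 to 5666 against 6535 to 6883. Of 6 basophil, eosinophil and mast cell markers 3 fell (4721 to 4833 against 7630 to 8508). Markers of B cells (1 of 5 lower), of T and NK cells (0 of 7 called by limma and 2 at an unadjusted p under 0.05) and of red cells (1 of 3 lower) had sums of at most 525.9 in any array. In bulk RNA, fewer cells of a type and less RNA per cell cannot be told apart, and the part of these shifts in the results on chaperones was not tested.

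Chaperone transcripts moved in both directions with caffeine. All 3 HSP110 genes of the set rose, as did the cytosolic Hspa8, Dnaja1, Dnaja2 and Dnajb1, while the cytosolic Dnajb4 fell. Of the 12 members listed under the ER and its membrane 4 rose, led by Dnajb9, and 5 fell, Dnajb11 and Dnajc10 among them. Of the 8 mitochondrial members 1 rose (Dnajc11) and 3 fell (Dnajc15, Dnajc19 and Dnajc30), of which the calls of Dnajc15 and Dnajc19 were lost in some alternatives. Of the 78 genes 25 rose, 22 fell and 31 did not pass the limma test. The share called, 60.3%, compares with 37.9% of all genes tested. Members are bright, however. Among genes above the median brightness 63.5% of 63 members and 62.6% of 9968 genes were called, so there the shares called were close. By direction, 38.1% of these members rose and 25.4% fell, against 29.5% and 33.0% of the genes above the median. These members were brighter than those genes, with a median brightness percentile of 89.6 against 75.0. Among the 1994 brightest genes 41.5% rose and 34.2% fell, and among the 31 members there 48.4% rose and 16.1% fell. Among these brightest genes the members' share of rises thus lay nearer to that of the genes than it did above the median. Their share of falls lay further below it. Called in either direction were 64.5% of the 31 members and 75.7% of the 1994 genes. The median difference over the members was -0.04, as it was over all genes (-0.04). By at least 1.5-fold, 16 members rose and 8 fell, against 7.88% and 9.63% of all genes. Among those above the median brightness it was 16 and 4 of 63 members (25.4% and 6.35%), against 15.0% and 15.1% of genes. Among the 1994 brightest genes 20.7% rose and 13.2% fell by at least 1.5-fold, against 25.8% and 6.45% of the 31 members there. By at least 2-fold 3 members rose (Hspa14, Hsph1 and Dnajb9) and 2 fell (Hspb11 and Dnajc28). These are 3.85% and 2.56% of the 78, against 2.63% and 3.15% of all genes. Above the median brightness it was 4.76% and 1.59% of members, against 5.04% and 5.24% of genes. Among the 1994 brightest genes it was 7.87% and 3.66%, against 6.45% and 0% of the 31 members there.

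**Figure D1:**
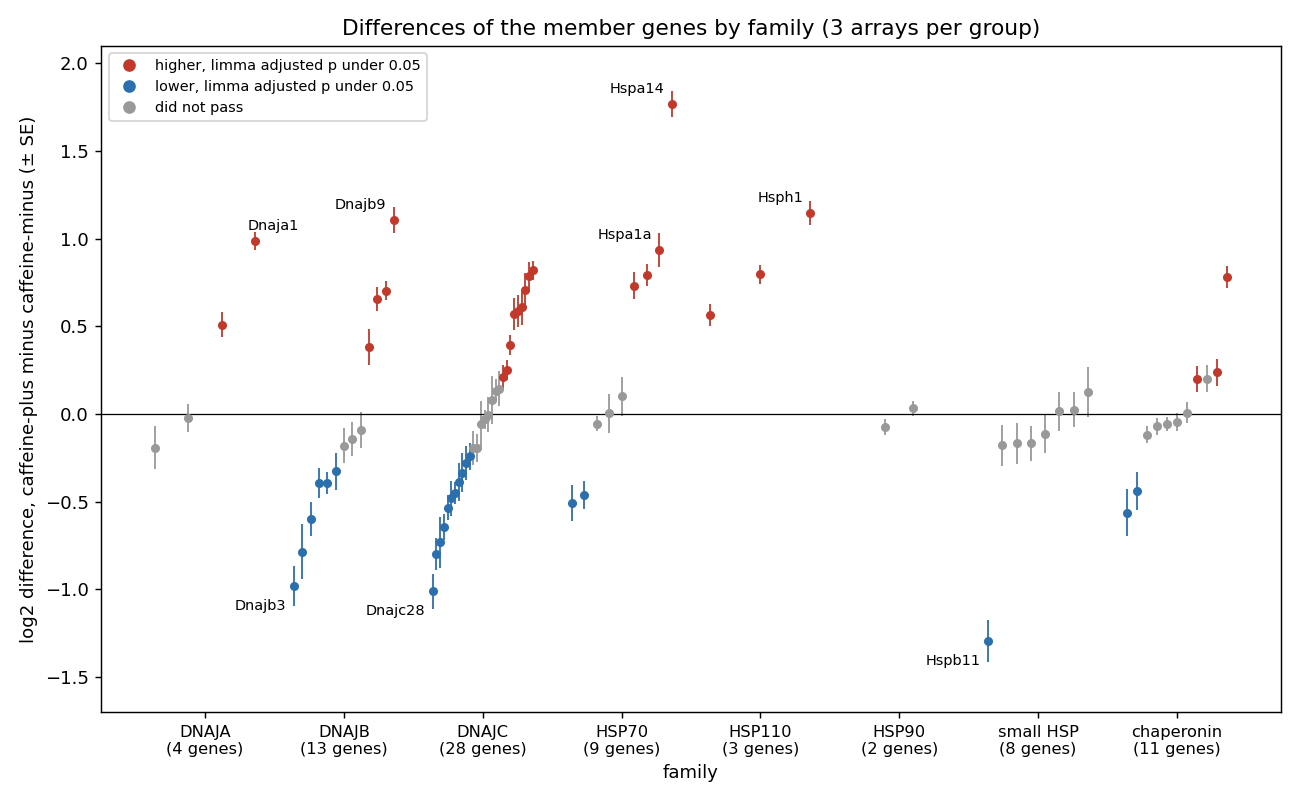
Log2 difference, caffeine-plus minus caffeine-minus, of each of the 78 member genes by family, with its standard error (3 arrays per group). The 3 HSP110 genes all lie above 0, both HSP90 genes lie next to 0, and the DNAJB and DNAJC genes run from about -1 to 1, with Hspa14 (1.77) at the top and Hspb11 (-1.30) at the bottom.

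Within the HSP70 family 4 of 9 genes rose and 2 fell (44.4% and 22.2%), against 29.5% and 33.0% of all genes above the median brightness. Hspa14, whose protein forms the ribosome-associated complex with DNAJC2 and meets new chains as they leave the ribosome, had the largest difference of all members. It read 10.53, 10.57 and 10.42 in the caffeine-plus arrays and 8.80, 8.81 and 8.60 in the caffeine-minus arrays. The groups lay 1.61 apart at their nearest arrays, and the gene was 3.41-fold higher (difference 1.77 ± 0.07, adjusted p = 9.7e-11 in limma). Its partner Dnajc2 read 9.51, 9.55 and 9.51 with caffeine and 9.44, 9.34 and 9.38 without it, a difference of 0.13 ± 0.06 that did not pass (adjusted p = 0.13), although it passed with arrays centred on their medians (adjusted p = 0.018).

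Hspa8, the constitutive cytosolic HSC70, read 13.02, 13.03 and 12.87 in the caffeine-plus arrays and 12.17, 12.32 and 12.05 in the caffeine-minus arrays. All caffeine-plus arrays lay above all caffeine-minus arrays, and the gene was 1.73-fold higher (difference 0.79 ± 0.06, adjusted p = 4.5e-08 in limma). Hspa1a, a stress-inducible HSP70, read 8.42, 8.32 and 8.11 with caffeine and 7.33, 7.45 and 7.25 without it. It was 1.91-fold higher (difference 0.94 ± 0.10, adjusted p = 8.9e-07 in limma), but Hspa1b is nearly identical in sequence, so signal of the pair cannot be assigned to Hspa1a alone. Hspa2, an HSP70 best known from the testis, read 8.89, 8.97 and 8.79 with caffeine and 8.16, 8.19 and 8.11 without it and was 1.66-fold higher (0.73 ± 0.08). Its span overlaps that of 4930426I24Rik in the reference annotation.

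The remaining HSP70 genes fell or did not pass. Hspa1l, which lies beside Hspa1a and Hspa1b in the genome, read 6.84, 6.70 and 6.93 with caffeine and 7.39, 7.42 and 7.18 without it and was 1.42-fold lower (difference -0.51 ± 0.10, adjusted p = 0.00073 in limma). Hspa13, a microsomal HSP70, read 9.01, 9.14 and 9.09 with caffeine and 9.61, 9.65 and 9.37 without it and was 1.38-fold lower (-0.46 ± 0.08). In both, every caffeine-plus array lay below every caffeine-minus array, as in 26.3% of all genes. The divergent members Hspa12a and Hspa12b gave 0.10 ± 0.11 and 0.00 ± 0.11, and mitochondrial Hspa9 (mortalin) gave -0.06 ± 0.04, all 3 without passing.

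All 3 members from the HSP110 branch, whose proteins exchange the nucleotide of HSP70 and help to take aggregates apart, rose. Of all genes above the median brightness 29.5% rose, and of the 1994 brightest genes 41.5%. Hyou1, the ER relative in this branch, lies outside the name rule and was 1.19-fold lower (difference -0.26 ± 0.07, adjusted p = 0.011 in limma). Hsph1 (HSP105), which holds the heat shock element shown above, read 9.67, 9.61 and 9.74 in the caffeine-plus arrays and 8.53, 8.57 and 8.48 in the caffeine-minus arrays. It was 2.21-fold higher (difference 1.15 ± 0.07, adjusted p = 3.2e-09 in limma). Hspa4 read 11.05, 11.06 and 11.02 with caffeine and 10.31, 10.27 and 10.17 without it and was 1.74-fold higher (0.80 ± 0.06). Hspa4l read 10.30, 10.40 and 10.44 with caffeine and 9.87, 9.80 and 9.78 without it and was 1.48-fold higher (0.56 ± 0.06). In each of the 3 every caffeine-plus array lay above every caffeine-minus array, as in 19.5% of all genes. Each kept its call in all 16 alternatives.

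**Figure D2:**
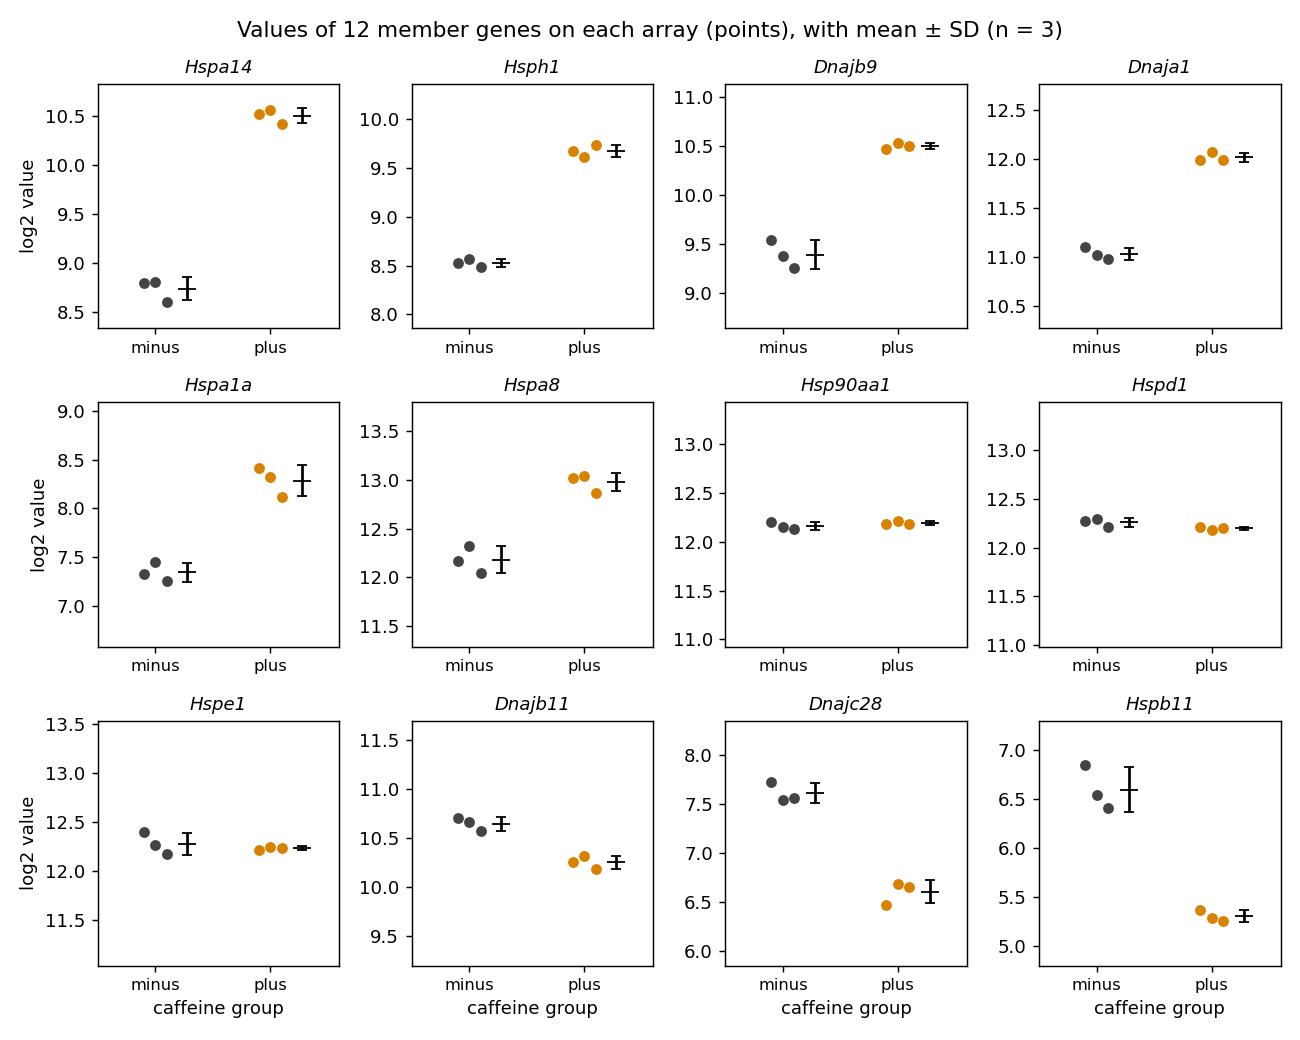
Log2 values of 12 member genes on each array, caffeine-minus in grey and caffeine-plus in orange, with the mean ± SD (n = 3) beside the points, and every panel spans the same range of log2 units. The groups are separate for Hspa14, Hsph1, Dnajb9, Dnaja1, Hspa1a and Hspa8 (higher) and for Dnajb11, Dnajc28 and Hspb11 (lower), while those of Hsp90aa1, Hspd1 and Hspe1 overlap.

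The DNAJA family holds the main cytosolic partners of HSC70. Of its 4 genes 2 rose and 0 fell (50% and 0%), against 29.5% and 33.0% of all genes above the median brightness. Dnaja1 read 11.99, 12.07 and 12.00 in the caffeine-plus arrays and 11.10, 11.02 and 10.98 in the caffeine-minus arrays. It was 1.98-fold higher (difference 0.99 ± 0.05, adjusted p = 5.2e-10 in limma). The dimmer of the 2 probe sets of Dnaja1 gave a smaller rise, 1.40-fold (0.48 ± 0.11). Dnaja2 read 9.83, 9.91 and 9.79 with caffeine and 9.44, 9.33 and 9.25 without it and was 1.42-fold higher (0.51 ± 0.07). Dnaja3, the mitochondrial member, and Dnaja4 differed by -0.02 ± 0.08 and -0.19 ± 0.12 and did not pass.

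In the DNAJB family 4 of 13 genes rose and 6 fell (30.8% and 46.2%), against 29.5% and 33.0% of all genes above the median brightness. Dnajb9 (ERdj4), an ER-resident protein that represses the stress sensor IRE1, read 10.46, 10.53 and 10.50 in the caffeine-plus arrays and 9.54, 9.37 and 9.25 in the caffeine-minus arrays. It was 2.15-fold higher (difference 1.11 ± 0.07, adjusted p = 7.4e-09 in limma). Dnajb6, which keeps polyglutamine proteins from aggregating, read 11.16, 11.22 and 11.26 with caffeine and 10.56, 10.52 and 10.45 without it and was 1.63-fold higher (0.70 ± 0.05). Dnajb1, the classical stress-inducible HSP40, read 9.43, 9.48 and 9.44 with caffeine and 8.88, 8.78 and 8.73 without it and was 1.58-fold higher (0.66 ± 0.07). Dnajb2, a member rich in neurons, was 1.30-fold higher (0.38 ± 0.10). The groups were separate in each of the 4 genes that rose, as in 19.5% of all genes in that direction.

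Among the DNAJB genes that fell, Dnajb3 read 5.48, 5.43 and 5.50 with caffeine and 6.67, 6.29 and 6.41 without it and was 1.98-fold lower (difference -0.98 ± 0.11, adjusted p = 3.1e-06 in limma). It lies within the span of the Ugt1a genes in the reference annotation. Dnajb7 read 6.26, 6.37 and 6.17 with caffeine and 7.16, 7.40 and 6.60 without it and was 1.72-fold lower (-0.79 ± 0.16), and it lies within Xpnpep3. Dnajb4, a cytosolic HSP40, read 9.17, 9.32 and 9.12 with caffeine and 9.98, 9.89 and 9.54 without it and was 1.51-fold lower (-0.60 ± 0.10), with a span that overlaps Fubp1. Signal from overlapping genes cannot be told apart here. Dnajb11 and Dnajb13, a protein of the sperm flagellum, were 1.31-fold lower and 1.32-fold lower. Dnajb5 was 1.25-fold lower (adjusted p = 0.022), a call that did not hold without caffeine-plus array 1 (0.11), caffeine-minus array 1 (0.067) and caffeine-minus array 3 (0.089), after quantile normalization (0.11) and with arrays centred on their medians (0.12), with the adjusted p in brackets. Dnajb8, Dnajb12 and Dnajb14 differed by -0.18 ± 0.10, -0.14 ± 0.10 and -0.09 ± 0.10 and did not pass.

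The 12 members listed under the ER and its membrane split into 4 that rose, 5 that fell and 3 that did not pass. The shares that rose and fell, 33.3% and 41.7%, compare with 29.5% and 33.0% of all genes above the median brightness. Dnajc14, which acts in transport of receptors out of the ER, was not listed among the 12 and was 1.45-fold lower. Besides Dnajb9, the higher genes were Dnajc1, Dnajc25 and Dnajc3. Dnajc1 (ERdj1), which binds ribosomes at the ER membrane, read 8.24, 8.19 and 8.11 with caffeine and 7.57, 7.62 and 7.24 without it and was 1.63-fold higher (difference 0.70 ± 0.10, adjusted p = 3.4e-05 in limma). Dnajc25, a membrane-spanning J protein, read 8.97, 8.87 and 8.94 with caffeine and 8.24, 8.09 and 8.07 without it and was 1.73-fold higher (0.79 ± 0.08). Dnajc3 (p58IPK), known as an inhibitor of the kinase PERK, read 10.67, 10.64 and 10.61 with caffeine and 10.43, 10.45 and 10.30 without it and was 1.19-fold higher (0.25 ± 0.06).

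The lumenal folding helpers Dnajb11 and Dnajc10 were lower. Dnajb11 (ERdj3), a soluble partner of BiP, read 10.25, 10.32 and 10.18 in the caffeine-plus arrays and 10.70, 10.66 and 10.57 in the caffeine-minus arrays (difference -0.39 ± 0.06, adjusted p = 6.1e-05 in limma). Dnajc10 (ERdj5), a disulfide reductase, read 9.08, 9.02 and 9.02 with caffeine and 9.69, 9.81 and 9.55 without it and was 1.56-fold lower (-0.64 ± 0.08). Dnajc16 was 1.40-fold lower and Hspa13 fell as given above. Dnajc18 was 1.21-fold lower with overlapping groups (adjusted p = 0.033), and it did not pass without caffeine-plus array 1 (0.13), caffeine-plus array 3 (0.16), caffeine-minus array 1 (0.12) and caffeine-minus array 2 (0.091), with arrays centred on their medians (0.3) and without the intensity trend (0.07). Hsp90b1 (GRP94), the HSP90 of the ER, read 12.39, 12.45 and 12.45 in the caffeine-plus arrays and 12.57, 12.53 and 12.43 in the caffeine-minus arrays, so its groups overlapped (difference -0.08 ± 0.04, adjusted p = 0.23 in limma). It passed, as lower, without caffeine-minus array 3 (adjusted p = 0.013).

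The DNAJC family is defined by the J domain alone and its members have specialised tasks. Of 28 genes 9 rose and 11 fell (32.1% and 39.3%), against 29.5% and 33.0% of all genes above the median brightness. The count of lower genes was 7 without caffeine-plus array 1, without caffeine-minus array 1 and with arrays centred on their medians, where 11 rose. Dnajc13 (RME-8), which works with HSC70 on endosomes, read 11.82, 11.85 and 11.87 in the caffeine-plus arrays and 11.00, 11.14 and 10.95 in the caffeine-minus arrays and was 1.76-fold higher (difference 0.82 ± 0.05, adjusted p = 8.0e-09 in limma). Dnajc21, needed for maturation of the large ribosomal subunit, differed by 0.59 ± 0.09, and Dnajc17, linked to the spliceosome, was 1.48-fold higher (0.57 ± 0.09). Dnajc5, the cysteine string protein of secretory vesicles, was 1.31-fold higher (0.39 ± 0.06). Dnajc8, another spliceosome-linked member, was 1.16-fold higher (adjusted p = 0.025), and it did not pass without caffeine-plus array 1 (0.051), caffeine-plus array 2 (0.14), caffeine-plus array 3 (0.055) and caffeine-minus array 2 (0.074), after quantile normalization (0.52) and without the intensity trend (0.074).

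Dnajc28 showed the largest fall of the DNAJ genes. It read 6.47, 6.69 and 6.65 in the caffeine-plus arrays and 7.73, 7.54 and 7.57 in the caffeine-minus arrays and was 2.02-fold lower (difference -1.01 ± 0.10, adjusted p = 4.8e-07 in limma). Dnajc5b read 4.77, 4.88 and 4.88 with caffeine and 5.94, 5.55 and 5.24 without it and was 1.66-fold lower (-0.73 ± 0.15). Dnajc14, which acts in transport of receptors out of the ER, was 1.45-fold lower, and Dnajc9, a histone co-chaperone, was 1.37-fold lower. In these 4 genes every caffeine-plus array lay below every caffeine-minus array, as in 26.3% of all genes. Dnajc12 was 1.26-fold lower (adjusted p = 0.028), and it did not pass without caffeine-plus array 1 (0.2) and caffeine-minus array 1 (0.1), after quantile normalization (0.11) and with arrays centred on their medians (0.15). Dnajc7, which links HSP70 to HSP90, gave -0.03 ± 0.05, and Dnajc6 (auxilin), which uncoats clathrin vesicles, gave 0.00 ± 0.10. Dnajc4 (-0.19 ± 0.08), Dnajc5g (0.08 ± 0.14), Dnajc22 (-0.06 ± 0.13), Dnajc24 (-0.20 ± 0.10), an enzyme of diphthamide synthesis, and Dnajc27 (0.14 ± 0.10) did not pass either. Dnajc4 passed among genes above the median brightness (0.044) and Dnajc27 passed after quantile normalization (0.032) and with arrays centred on their medians (0.042).

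In mitochondria the core folding machines showed small differences, while 3 J proteins were lower. Hspd1 (HSP60) read 12.21, 12.18 and 12.21 in the caffeine-plus arrays and 12.28, 12.29 and 12.21 in the caffeine-minus arrays (difference -0.06 ± 0.04, adjusted p = 0.35 in limma). Hspe1 (HSP10) read 12.21, 12.25 and 12.24 with caffeine and 12.40, 12.27 and 12.17 without it (-0.05 ± 0.05). The groups overlapped in both, as in Hspa9 and Dnaja3. Of the 8 mitochondrial members 3 fell and 1 rose (37.5% and 12.5%), against 33.0% and 29.5% of all genes above the median brightness. Dnajc30, which associates with the ATP synthase, read 7.30, 7.43 and 7.40 with caffeine and 8.02, 8.31 and 8.19 without it and was 1.74-fold lower (-0.80 ± 0.09), with a span that overlaps Bud23. Dnajc15 and Dnajc19, J proteins of the protein import motor, were 1.31-fold lower and 1.18-fold lower (adjusted p = 0.0091 and 0.021). The call of Dnajc15 was lost without caffeine-plus array 1 (0.055) and caffeine-minus array 1 (0.053) and with arrays centred on their medians (0.086), and that of Dnajc19 was lost without caffeine-plus array 1 (0.088), caffeine-plus array 2 (0.09) and caffeine-minus array 1 (0.076) and with arrays centred on their medians (0.29). Dnajc11, linked to the cristae-organising complex of the inner membrane, read 7.20, 7.26 and 7.18 with caffeine and 6.74, 6.63 and 6.44 without it and was 1.52-fold higher (0.61 ± 0.10).

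Neither measured HSP90 gene passed the limma test, and neither had an unadjusted p under 0.05. Hsp90aa1, the stress-inducible cytosolic form, read 12.18, 12.22 and 12.18 in the caffeine-plus arrays and 12.20, 12.15 and 12.13 in the caffeine-minus arrays. Its groups overlapped and the difference did not pass (difference 0.03 ± 0.04, adjusted p = 0.64 in limma), but it passed, at 0.13, after quantile normalization (adjusted p = 0.0017). Whether its difference departs from those of Hspa8 or Hsph1 was not tested.

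Among the 7 subunits of the CCT ring with a Cct symbol (Tcp1, a measured subunit outside the name rule, is given with the partner genes) 3 rose and 0 fell in limma, with 1 (Cct2) lower at an unadjusted p under 0.05. Their median brightness percentile was 95.5. The shares that rose and fell, 42.9% and 0%, compare with 41.5% and 34.2% of the 1994 brightest genes. Cct4 read 11.45, 11.41 and 11.41 in the caffeine-plus arrays and 10.67, 10.75 and 10.50 in the caffeine-minus arrays and was 1.72-fold higher (difference 0.78 ± 0.06, adjusted p = 5.0e-08 in limma). The other 6 differed by at most 0.24. Cct3 read 9.72, 9.80 and 9.83 with caffeine and 9.48, 9.71 and 9.44 without it and was 1.18-fold higher (adjusted p = 0.02), and Cct6a read 9.87, 9.84 and 9.78 with caffeine and 9.78, 9.61 and 9.49 without it and was 1.15-fold higher (adjusted p = 0.046). The call of Cct3 was lost without caffeine-plus array 2 (0.07), caffeine-plus array 3 (0.083) and caffeine-minus array 1 (0.065), after quantile normalization (0.39) and without the intensity trend (0.07). That of Cct6a was lost without caffeine-plus array 1 (0.16), caffeine-plus array 2 (0.13), caffeine-plus array 3 (0.065), caffeine-minus array 2 (0.1) and caffeine-minus array 3 (0.13), after quantile normalization (0.61), when every probe set was tested (0.053) and without the intensity trend (0.12), so of these 7 subunits only the rise of Cct4 was called in all 16 alternatives. Cct7 (0.20 ± 0.08), Cct5 (0.01 ± 0.06), Cct8 (-0.07 ± 0.05) and Cct2 (-0.12 ± 0.05) did not pass. Cct7 passed as higher without caffeine-minus array 1 (0.016), with the replicate block (0.039), with arrays centred on their medians (0.013), among genes above the median brightness (0.033), among genes above the 25th percentile of brightness (0.04) and with the mean of each gene's probe sets (0.05). Cct2 passed as lower without caffeine-minus array 3 (0.013), among genes above the median brightness (0.038) and with array weights (0.032), and Cct8 as lower without caffeine-minus array 3 (0.047).

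The relatives Cct6b and Cct8l1, outside the ring of somatic cells, fell. Cct6b, a form of the subunit known from the testis, read 5.65, 5.44 and 5.06 with caffeine and 6.01, 5.90 and 5.94 without it and was 1.48-fold lower (-0.56 ± 0.13). Cct8l1 read 5.44, 5.25 and 5.53 with caffeine and 5.81, 5.86 and 5.87 without it and was 1.36-fold lower (-0.44 ± 0.11). Both probe sets were among the dim ones, below the median brightness of all genes, and the span of Cct6b overlaps Zfp830.

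Of 8 small heat shock protein genes 1 fell and 0 rose in limma, also 0 at an unadjusted p under 0.05. The shares that fell and rose, 12.5% and 0%, compare with 21.7% and 16.2% of all genes tested. The median brightness percentile of the 8 was 42.3, and at or below the median brightness 10.3% of genes fell and 2.87% rose. Hspb11 (IFT25), which despite its name acts in transport along cilia, read 5.37, 5.29 and 5.25 in the caffeine-plus arrays and 6.85, 6.54 and 6.40 in the caffeine-minus arrays. It was 2.45-fold lower (difference -1.30 ± 0.12, adjusted p = 2.7e-07 in limma), the largest fall among the members. Hspb1 (HSP27), the stress-inducible member with 2 copies of GAANNTTC before its start, read 7.83, 7.45 and 7.58 with caffeine and 7.11, 7.62 and 7.76 without it, with a spread wider than its difference (0.13 ± 0.14). Hspb2, Hspb3, Hspb6, Hspb7, Hspb8 and Hspb9 differed by between -0.18 and 0.02 and did not pass. No small heat shock protein gene was called in the opposite direction, or newly called, in the 16 alternatives.

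For 7 members the array holds several probe sets annotated to the gene alone, and within each gene they gave the same call when every probe set was tested. All 15 probe sets of Dnajc13 were higher, with differences from 0.60 to 1.26. The 3 of Hspa8 were higher by 0.76 to 0.96, and the 2 of Dnaja1 by 0.48 and 0.99. None of the 3 of Hsp90aa1 passed (-0.25 to 0.03), nor the pairs of Hspd1, Hspe1 and Hspb1. Probe sets annotated to the same gene are not replicates of the condition, and whether each reads that gene alone was not tested. Of the 47 members called, 19 have a span that overlaps another gene in the reference annotation, besides those already named Dnajc1 (Mllt10), Dnajc14 (Ormdl2), Dnajc17 (Zfyve19), Dnajc19 (Fxr1) and Cct6a (Psph) among them. Another 9 probe sets name a member together with another gene and were not used.

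**Figure D3:**
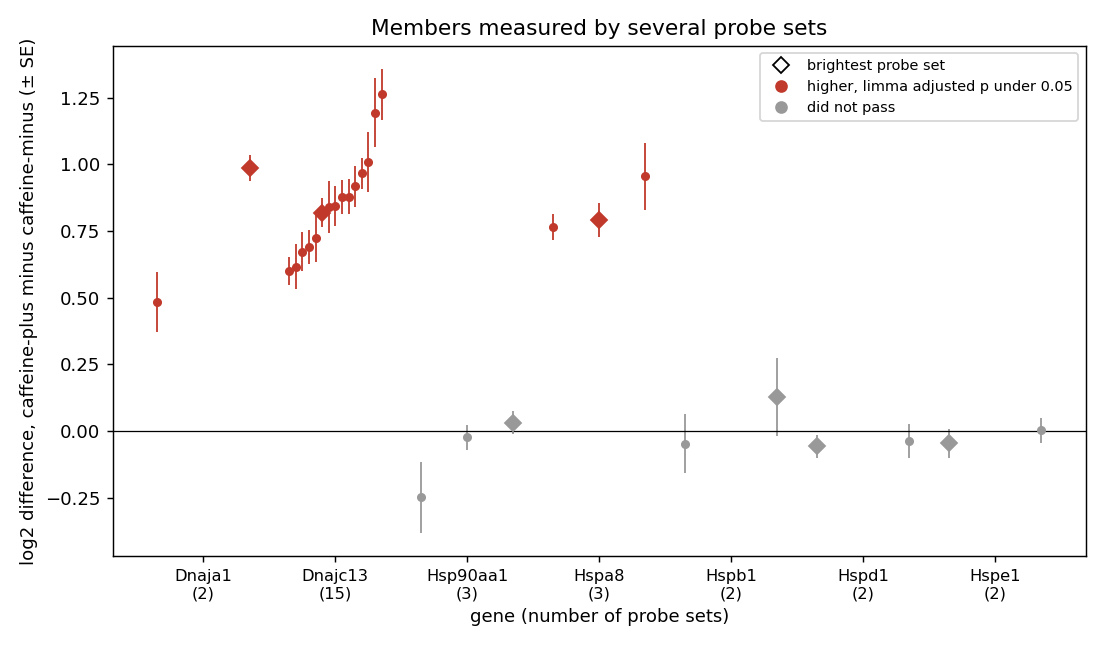
Log2 difference, caffeine-plus minus caffeine-minus, with its standard error, of every probe set of the 7 members that have several (diamond, the brightest). All probe sets of Dnaja1, Dnajc13 and Hspa8 lie above 0 and passed the limma test, and those of Hsp90aa1, Hspb1, Hspd1 and Hspe1 did not pass.

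The brightness of the probe sets, which depends on the probes as well as on the RNA, differed between members that rose and fell. The 25 genes that rose had a median log2 value of 9.62 over the 6 arrays, the 22 that fell 7.41 and the 31 that did not pass 7.68. Of the 15 members at or below the median brightness of all genes 6 fell and 1, Dnajb2, rose. The same held over all genes, where 10.3% of those at or below the median fell and 2.87% rose. On dim probe sets a log2 difference is smaller than the change of the RNA.

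**Figure D4:**
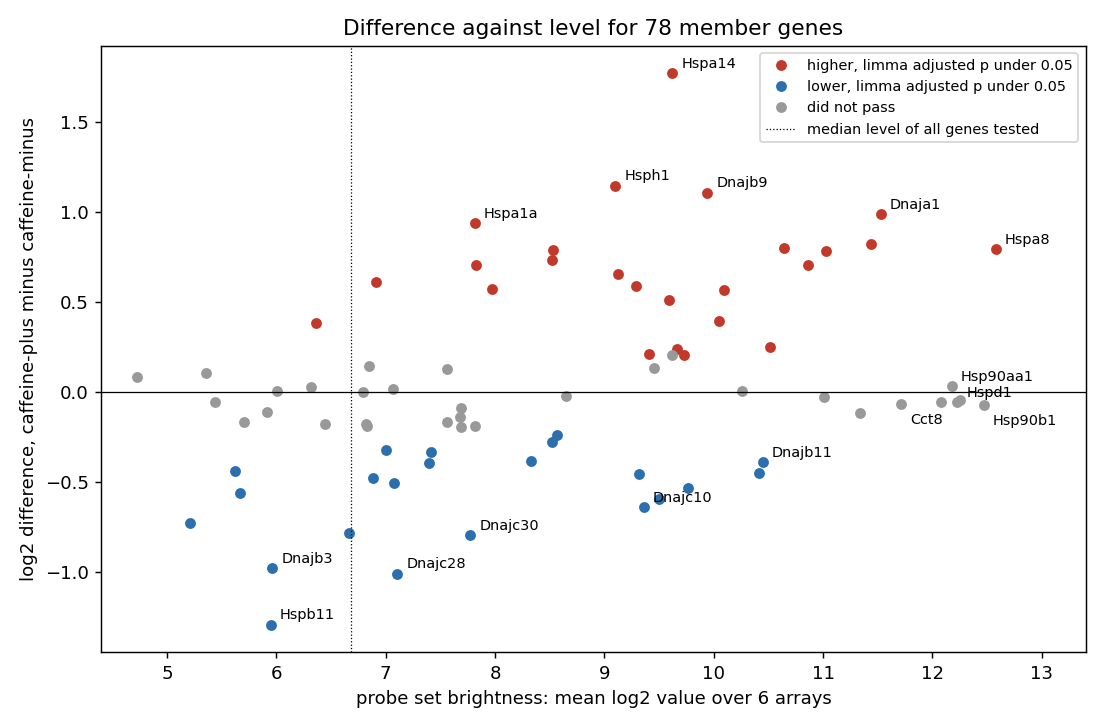
Log2 difference, caffeine-plus minus caffeine-minus, against the mean log2 value over 6 arrays for the 78 members; the dotted line marks the median of all genes tested (6.68). Members called lower lie mostly at the left and centre, and members called higher mostly at the centre and right. At the far right Hspa8 lies at 0.79, while Hspd1, Hsp90aa1 and Hsp90b1 lie next to 0.

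Of 70 measured genes that work with these chaperones, from 5 lists, 19 rose and 24 fell. The share called, 61.4%, was close to the 62.6% of all genes above the median brightness, where 61 of the 70 lie. The measured HSF genes and regulators numbered 6 (Hsf1 was not tested here). Hsbp1, an inhibitor of HSF1, was 1.60-fold lower (difference -0.68 ± 0.06, adjusted p = 1.0e-07 in limma), and Hsf2 gave -0.03 ± 0.09. Hsf3, with a span that overlaps Heph, was 1.72-fold lower. Its means were only 2.86 with caffeine and 3.64 without it, at percentile 1.41 of brightness among all genes. Without detection calls, whether this probe set read any Hsf3 RNA above background was not tested. Regulators of HSP70 numbered 14, of which 8 fell and 1 rose (57.1% and 7.14%, against 33.0% and 29.5% of all genes above the median brightness, where 12 of the 14 lie), and median centring left 4 of the 8 falls. The nucleotide exchange factor Bag1 read 10.53, 10.59 and 10.67 with caffeine and 11.27, 11.25 and 11.25 without it and was 1.58-fold lower (-0.66 ± 0.05). Bag3, the stress-inducible member that leads clients to autophagy, read 8.36, 8.35 and 8.19 with caffeine and 7.62, 7.98 and 7.67 without it and was 1.46-fold higher (0.55 ± 0.10). The ubiquitin ligase gene Stub1 (CHIP), with a span that overlaps Jmjd8, was 1.53-fold lower (-0.61 ± 0.07).

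Of 21 measured HSP90 co-chaperone genes 11 rose and 4 fell (52.4% and 19.0%). All 21 lie above the median brightness, where 29.5% of all genes rose and 33.0% fell. The count of higher genes was 7 without caffeine-plus array 1 or 2 and after quantile normalization. Tomm34, a cytosolic adaptor between HSP70 and HSP90, read 9.92, 10.03 and 9.93 in the caffeine-plus arrays and 8.83, 8.49 and 8.60 in the caffeine-minus arrays and was 2.50-fold higher (difference 1.32 ± 0.08, adjusted p = 5.1e-09 in limma). Rpap3, a subunit of the R2TP complex that assembles PI3K-like kinases and RNA polymerase with HSP90, read 7.93, 8.16 and 8.02 with caffeine and 6.97, 6.85 and 6.70 without it and was 2.29-fold higher (1.20 ± 0.10). Sugt1 (SGT1), which works with HSP90 on innate immune receptors and at kinetochores, was 1.61-fold higher (0.69 ± 0.09). Stip1 (HOP), which bridges HSP70 and HSP90, was 1.22-fold higher (0.29 ± 0.05).

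Of 16 prefoldin and chaperonin partners 4 rose and 6 fell (25% and 37.5%), against 29.5% and 33.0% of all genes above the median brightness. The phosducin-like genes Pdcl and Pdcl3, whose proteins act on CCT, went in opposite directions, Pdcl 1.67-fold higher (0.74 ± 0.08) and Pdcl3 1.65-fold lower (-0.72 ± 0.09). Tcp1, the CCT ring's first subunit under its older name, gave -0.09 ± 0.05 and did not pass. Of 13 other chaperone genes 3 rose and 4 fell (23.1% and 30.8%), close to the same shares. Gak, an auxilin-like J protein, was 1.67-fold higher (0.74 ± 0.07), while Trap1, the HSP90 of mitochondria, was 1.38-fold lower (-0.46 ± 0.08).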

How the data were processed

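RNA of 6 granulocyte samples was hybridised to Affymetrix Mouse Gene 1.0 ST arrays after Trizol extraction and labelling of 300 ng, per the labels' protocols. The deposited table gives 1 log2 value for each of 34760 probe sets per array. That the values are log2 and normalized between arrays was read from them (1.90 to 13.98, array medians 6.49 to 6.60); how the authors summarized and normalized them is not stated in the sources used here. Such values do not show a change in total mRNA per cell, and no detection calls were used.

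Gene names came from the platform annotation, in which 21640 probe sets have 1 symbol, 1321 have several and 11799 are not listed. All 78 members were found in the reference gene table (GRCm38.p6), used for spans and overlaps. The brightest probe set stood for a gene. The test was limma's, version 3.58.1 under R 4.3.3 (lmFit, eBayes with trend, two-sided, Benjamini-Hochberg over 19937 genes) and checked on simulated data. Replicate numbers were not taken to pair arrays, since deviations of same-numbered arrays correlated at -0.03, 0.19 and 0.29. Values in every array are given for called members that differ by at least 0.7, for the 3 largest rises and falls of each family, and for a set of well-known members. They are also given for Dnajb11, Dnajc2, Dnajc3, Dnajc10 and Dnajc11, which that rule does not cover. Partner genes are the largest 5 each way, a few fixed ones and Hyou1. The members, lists and motifs were chosen with earlier results of these data known. The 16 alternatives were the replicate block, quantile normalization, median centring, 2 filters on dim genes, mean of probe sets, every probe set, eBayes without trend or robust, array weights and each array left out.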

Additional observations from a re-analysis of the deposited data

How the results depend on the processing

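Of the 47 members called, 39 kept the call in all alternatives that tested them and none changed sign. The other 8 were Cct3, Cct6a, Dnajb5, Dnajc8, Dnajc12, Dnajc15, Dnajc18 and Dnajc19, and 8 uncalled members were called in at least 1 alternative. The count of higher members ran from 22 to 25 and that of lower members from 17 to 24 over the arrays left out. The median member difference was -0.04 and became 0.012 after quantile normalization and 0.081 with arrays centred on their medians; the cause was not tested. With the replicate block 26 members were higher and 22 lower; Cct7 then passed (adjusted p = 0.039) and no other member's call changed. Dixon's test was not run, since groups hold 3 arrays. The number of arrays and, for dim probe sets, signal over background limit the precision.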
